A study of Mus musculus with 18 samples.

Results

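The transcription factor genes Egr1, Egr2, Egr3, Nr4a1, Nr4a2, Nr4a3, Myc and Klf4 and the immediate-early response genes Ier2 and Ier3 were followed through an adenovirus infection of the mouse salivary gland. These 10 genes were chosen by symbol and found by their Ensembl identifiers among the 55401 genes counted. RNA was sequenced from gp38+ stromal cells, a fraction rich in fibroblasts that carries podoplanin on its surface, sorted by flow cytometry from glands of wild-type Balb/c mice aged 8 to 12 weeks. The 18 libraries were in 6 groups of 3, each library from its own mouse: uninfected glands (hour 0) and glands at hour 3, day 1, day 2, day 8 and day 23 after a replication-defective Ad5 was given through the duct. The study uses this infection to raise ectopic lymphoid structures in the gland. A group cannulated without virus was not analysed here, so each comparison with hour 0 holds procedure and virus together. Cells were taken by 1 surface marker, and in bulk RNA fewer cells of a type and less RNA per cell cannot be told apart.

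All 10 genes are counted among the immediate-early or primary response genes, whose transcription starts within minutes of a stimulus and needs no new protein. EGR proteins are zinc finger factors that bind GC-rich sites and are switched on through serum response factor and its partners, while NR4A proteins are orphan nuclear receptors that act without a known hormone and whose genes respond to cyclic AMP signalling. MYC pairs with MAX at E-boxes and drives ribosome production and cell growth. Klf4 encodes a zinc finger factor of the Krüppel-like family, Ier2 a nuclear regulator, and Ier3 a stress-inducible protein that is a target of NF-kB. Enzymatic release of cells from tissue is also known to switch on genes of this class.

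Promoter windows of 300 bases, 250 before to 50 after a start site (RefSeq, GRCm38.p6), were at hand for 6 of the 10 genes, and 5 windows are shown because they belong to the genes with the clearest time courses and to both NR4A relatives of Nr4a3. The window of Klf4, the sixth gene, is not shown, and those of Egr1, Egr3, Myc and Ier2 were not used here. Capitals in the NR4A windows mark TGACG, the half-site bound by CREB-type factors, or its reverse complement CGTCA. In the Egr2 window they mark the same half-site and a CArG box, the site of serum response factor, and in the Ier3 window an NF-kB site.
Nr4a1, chr15:101266596-101266895, plus strand: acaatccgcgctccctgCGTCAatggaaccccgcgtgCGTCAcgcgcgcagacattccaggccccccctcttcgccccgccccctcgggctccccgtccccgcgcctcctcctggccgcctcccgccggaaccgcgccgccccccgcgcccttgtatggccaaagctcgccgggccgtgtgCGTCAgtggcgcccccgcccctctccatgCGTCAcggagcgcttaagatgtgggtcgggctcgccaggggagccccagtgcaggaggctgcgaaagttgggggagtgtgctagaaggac
Nr4a2, chr2:57123954-57124253, minus strand: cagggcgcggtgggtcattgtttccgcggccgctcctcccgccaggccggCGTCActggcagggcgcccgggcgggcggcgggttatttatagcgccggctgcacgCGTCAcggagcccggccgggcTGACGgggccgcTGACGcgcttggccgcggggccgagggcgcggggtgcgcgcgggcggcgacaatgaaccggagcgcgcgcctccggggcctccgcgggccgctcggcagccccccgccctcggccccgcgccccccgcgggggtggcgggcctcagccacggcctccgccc
Nr4a3, chr4:48045055-48045354, plus strand: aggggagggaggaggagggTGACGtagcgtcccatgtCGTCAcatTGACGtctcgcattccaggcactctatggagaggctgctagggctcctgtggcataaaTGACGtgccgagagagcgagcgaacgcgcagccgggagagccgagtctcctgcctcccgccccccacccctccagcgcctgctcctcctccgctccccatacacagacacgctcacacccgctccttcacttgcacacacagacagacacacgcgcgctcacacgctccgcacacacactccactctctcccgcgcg
Egr2, chr10:67537619-67537918, plus strand: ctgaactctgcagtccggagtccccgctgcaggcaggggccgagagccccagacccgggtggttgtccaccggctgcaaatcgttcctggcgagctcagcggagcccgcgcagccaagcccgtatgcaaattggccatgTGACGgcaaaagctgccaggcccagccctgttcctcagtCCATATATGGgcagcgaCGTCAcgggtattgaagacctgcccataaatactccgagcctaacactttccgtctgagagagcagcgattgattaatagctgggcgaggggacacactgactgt
Ier3, chr17:35821463-35821762, plus strand: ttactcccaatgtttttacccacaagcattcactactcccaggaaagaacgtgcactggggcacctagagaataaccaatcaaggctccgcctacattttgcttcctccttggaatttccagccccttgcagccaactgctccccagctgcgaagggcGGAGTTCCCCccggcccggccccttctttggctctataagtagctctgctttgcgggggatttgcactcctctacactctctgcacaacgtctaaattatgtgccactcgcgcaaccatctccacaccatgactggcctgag
Each NR4A window held 4 half-sites. At least 1 was present in 20.8% of all 32851 windows in the table and at least 4 in 0.231% of them (76 windows), a cutoff set after these windows had been read. The full site TGACGTCA, which contains the half-site on both strands, was in 1.79% of windows and in 0 of the 10 windows of the 6 genes. A CArG box was found in 1.63% of all windows and in 4 of the 5 alternative Egr2 windows, 3 of which overlap and hold the same box. An NF-kB site was found in 4.51% of windows, and among the 6 genes in those of Ier3 and Nr4a1. The EGR site GCGNGGGCG was in 5.55% of windows and in those of Nr4a1, Nr4a2 and Klf4, and the E-box CACGTG was in 7.15% and in those of Klf4 and of 1 Egr2 start. Both strands were searched, and these matches describe letters, not binding.

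Total counts were 4398234 to 15234431 per library (median 10227904). The lowest count of any of the 10 genes in any library was 77 (Egr3 at day 23, exact 95% Poisson interval 60.8 to 96.2), and all 10 passed the filter on low counts. Replicates of a group differed by more than sampling noise (chi-square per degree of freedom 3.802 to 90.189). The libraries formed sets that follow the replicate numbers and that the labels do not name, with hour 0, day 1 and day 2 (replicates 10 to 18) in one and hour 3, day 8 and day 23 (replicates 1 to 9) in the other. Counts on 1504 sensory receptor genes, taken as a measure of background, came to 0.194 to 0.21 CPM (counts per 1000000 counts, scaled by TMM) per kb of exon at day 2, and to 0.00237 to 0.00256 at day 8. They were 0.0951 to 0.142 at hour 0 and 0.0424 to 0.0832 at day 1, against 0.00719 to 0.0111 at hour 3 and 0.0018 to 0.00275 at day 23. Background thus also differed between groups of the same set. Spread over the exons of the 10 genes, that background was at most 3.8% of a gene's own CPM in a library (Egr3 at day 2), at most 2.13% for Myc and at most 0.217% for Egr1, Nr4a1, Ier2 and Klf4. Time and set cannot be told apart in comparisons of hour 3, day 8 or day 23 with hour 0, so hour 3 was also compared with day 8 and day 23, and day 2 with day 1, inside a set. Fibroblast markers were abundant in all groups (Pdgfra means of 182 to 2530 CPM, Col1a1 means of 3240 to 8020 CPM), but so were gland secretory transcripts at hour 0, hour 3, day 8 and day 23 (summed means of 48600 to 149000 CPM for 5 genes, against 2690 CPM at day 1 and 507 CPM at day 2).

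At hour 3, 6 of the 10 genes were higher than at hour 0 and 2 were lower (edgeR, adjusted p under 0.05 over 27525 genes, here and below). Of all genes tested 60% passed in either direction, 16.9% as higher and 43.1% as lower, so it was the number of higher genes, more than the number that passed in all, that exceeded the background. The median log2 fold change was 1.05 for the 10 genes and -1.41 for all genes. Myc, Ier3, Nr4a3 and Egr2 made up the large rises, Egr3 and Nr4a2 the smaller ones, and Klf4 and Egr1 fell.

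**Figure D1:**
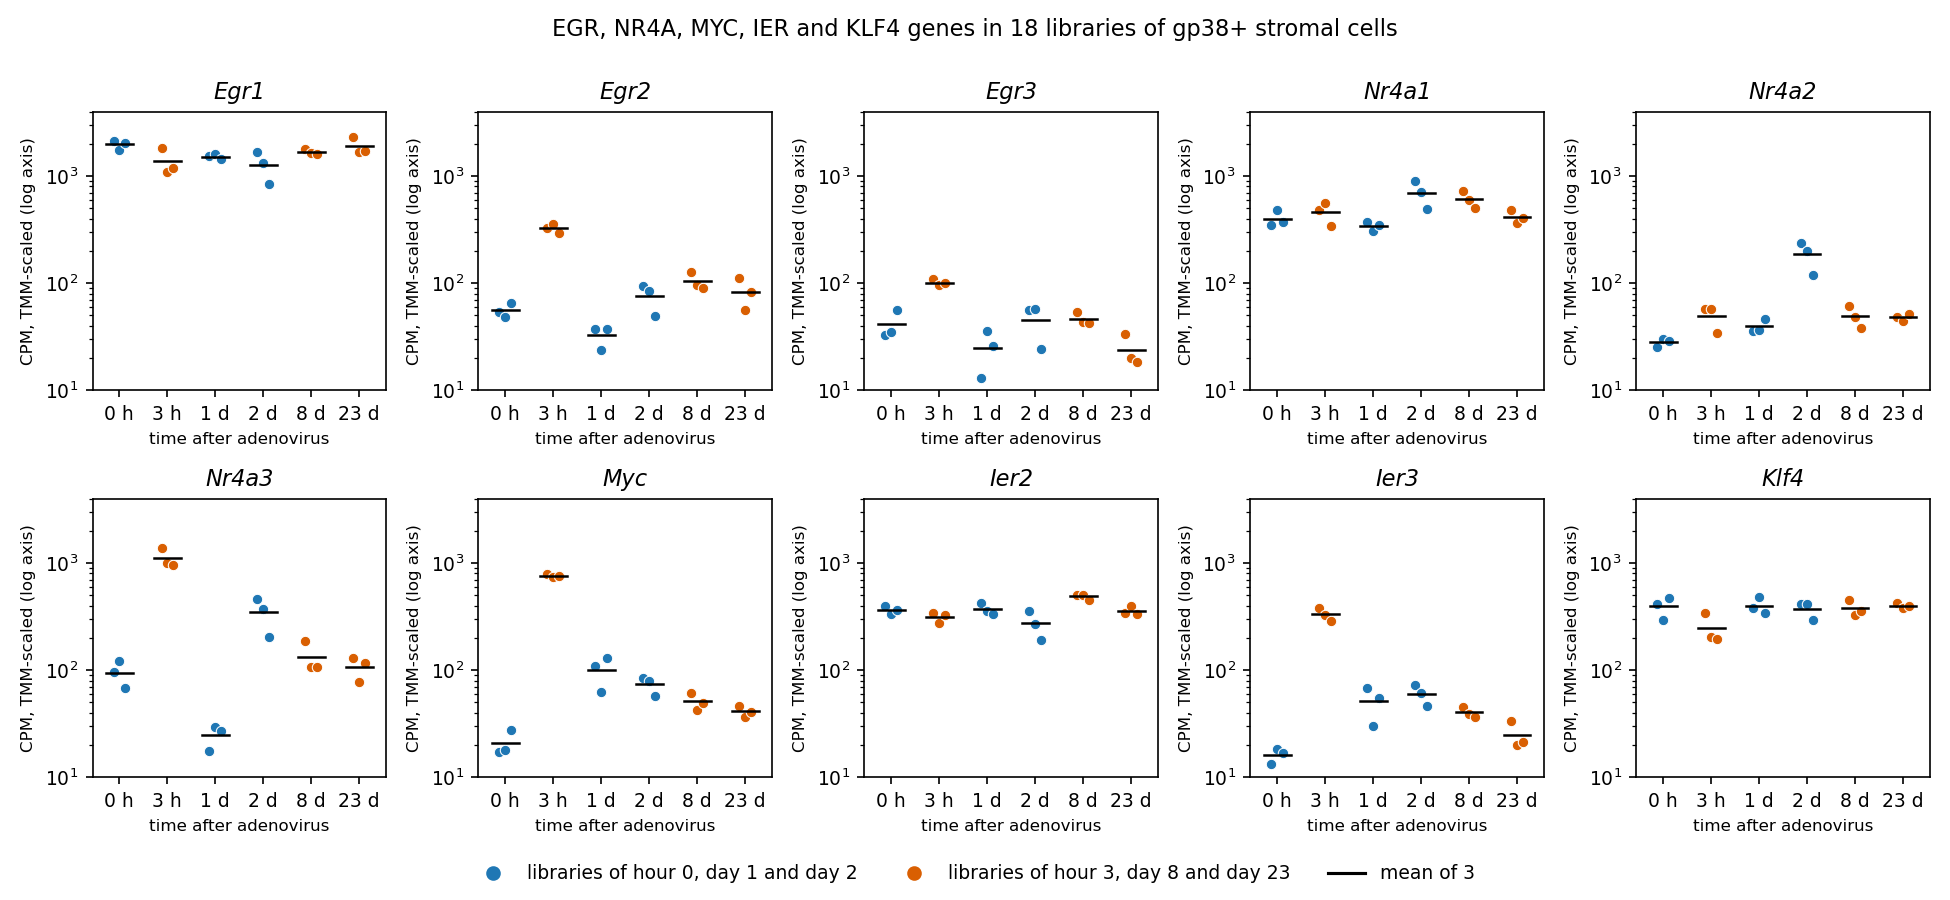
TMM-scaled CPM on a log axis for each of the 10 genes in each of the 18 libraries, by time after adenovirus, with black lines for means of 3 and colours for the library sets. Myc, Ier3, Nr4a3 and Egr2 stood apart at hour 3, Nr4a2 at day 2, while Egr1, Ier2 and Klf4 stayed within 1.79-fold between their highest and lowest group means.

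Myc (ENSMUSG00000022346, chromosome 15, 61985391 to 61990374) changed most at hour 3. It had 17.3, 18.1 and 27.5 CPM at hour 0, 786, 743 and 762 CPM at hour 3, 110, 62.2 and 130 CPM at day 1, 85.3, 79.8 and 57.7 CPM at day 2, 61.4, 42.8 and 49.6 CPM at day 8, and 46.7, 36.3 and 41 CPM at day 23. The hour 3 libraries lay far above all others and close to each other, and no later library came down to the level of an hour 0 library. Myc averaged 763 ± 21.6 CPM at hour 3 and 21 ± 5.64 CPM at hour 0 (SD, n = 3 each), which is 36.3-fold (log2 fold change 5.18 ± 0.259 SE, adjusted p = 2.5e-15). Inside the library set the same gene was 14.9-fold lower at day 8 than at hour 3 (-3.90, adjusted p = 2.04e-13) and 18.5-fold lower at day 23 than at hour 3 (-4.21, adjusted p = 6.84e-14).

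Ier3 (ENSMUSG00000003541, chromosome 17, 35821684 to 35822923), whose product modulates cell survival and NF-kB signalling, followed a similar course to Myc. At each time its mean was below that of Myc in CPM but above it per kb of exon. Its libraries read 13.2, 18.5 and 17 CPM at hour 0, 381, 330 and 285 CPM at hour 3, 68.5, 30.1 and 55 CPM at day 1, 72, 61.1 and 46.1 CPM at day 2, 45.8, 39 and 36.6 CPM at day 8, and 33.2, 20.1 and 21.5 CPM at day 23. All 15 libraries of infected glands exceeded the 3 of hour 0. Ier3 rose 20.5-fold at hour 3, to a mean of 332 ± 47.9 CPM against 16.2 ± 2.74 CPM at hour 0 (log2 fold change 4.36 ± 0.265 SE, adjusted p = 9.43e-14), and was lower at day 8 than at hour 3 (-3.04, adjusted p = 5.17e-11) and at day 23 than at hour 3 (-3.74, adjusted p = 1.83e-12). Ier5, a further immediate-early response gene, also rose at hour 3 (3.82, adjusted p = 1.72e-12), whereas Ier5l fell (-2.07, adjusted p = 2.07e-07).

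Nr4a3 (ENSMUSG00000028341, chromosome 4, 48045153 to 48086447) gave the third large rise. It had 95.7, 121 and 67.7 CPM at hour 0, 1390, 994 and 954 CPM at hour 3, 17.6, 29.3 and 27.1 CPM at day 1, 460, 375 and 206 CPM at day 2, 188, 108 and 106 CPM at day 8, and 129, 77 and 117 CPM at day 23. Its libraries lay above all of hour 0 at hour 3, below them at day 1 and above them again at day 2, an order that none of the other 9 genes showed. Nr4a3 averaged 1110 ± 242 CPM at hour 3 and 94.7 ± 26.6 CPM at hour 0, an 11.8-fold rise (log2 fold change 3.56 ± 0.295 SE, adjusted p = 5.54e-11). It was 8.31-fold lower at day 8 than at hour 3 (-3.06, adjusted p = 9.54e-10) and 10.4-fold lower at day 23 than at hour 3 (-3.37, adjusted p = 1.87e-10).

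Egr2 (ENSMUSG00000037868, chromosome 10, 67535475 to 67542188), also known for its role in myelinating glia, rose 5.83-fold at hour 3. It had 53.8, 48.4 and 65.5 CPM at hour 0, 327, 358 and 293 CPM at hour 3, 37.3, 23.7 and 37.2 CPM at day 1, 93.9, 85.4 and 49.2 CPM at day 2, 127, 96.6 and 90.3 CPM at day 8, and 111, 55.7 and 82.6 CPM at day 23. The hour 3 libraries stood alone, and those of day 1 lay below all of hour 0. The means were 326 ± 32.8 CPM at hour 3 and 55.9 ± 8.77 CPM at hour 0 (log2 fold change 2.54 ± 0.244 SE, adjusted p = 1.1e-09). Against hour 3, Egr2 was lower at day 8 (-1.64, adjusted p = 1.85e-06) and at day 23 (-1.98, adjusted p = 1.13e-07). The 4 glial markers summed to 51.6 to 56.9 CPM at hour 3 and 70.9 to 79.6 CPM at hour 0, and 0 of the 4 passed the test. Which cells carried the rise of Egr2 was not tested.

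Egr3 (ENSMUSG00000033730, chromosome 14, 70077203 to 70082614), which overlaps with Egr2 in function in lymphocytes, moved in the same direction by less. Its libraries had 32.6, 35.1 and 56.3 CPM at hour 0, 110, 95.2 and 99.4 CPM at hour 3, 12.9, 36 and 25.7 CPM at day 1, 56, 57.1 and 24.3 CPM at day 2, 53.9, 43.6 and 42.7 CPM at day 8, and 33.5, 20.2 and 18.2 CPM at day 23. Hour 3 was above every other library, and day 8 lay above all of day 1 and day 23, while each of the other neighbours in order of mean overlapped. Egr3 rose 2.45-fold at hour 3 (log2 fold change 1.29 ± 0.3 SE, adjusted p = 0.000859) and was lower than at hour 3 at day 8 (-1.12, adjusted p = 0.00377) and at day 23 (-2.08, adjusted p = 4e-06). With library totals in place of TMM its hour 3 value was 0.12 (adjusted p = 0.714), and at day 8 against hour 3 it was -0.33 (adjusted p = 0.48), while the day 23 difference from hour 3 held (-1.34).

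Nr4a2 (ENSMUSG00000026826, chromosome 2, 57106830 to 57124003), best known for its role in dopamine neurons, was scarce at hour 0. It had 25.5, 30.4 and 29 CPM at hour 0, 57.6, 57.5 and 34.2 CPM at hour 3, 36.1, 36.5 and 46.2 CPM at day 1, 237, 200 and 120 CPM at day 2, 60.8, 48.2 and 38 CPM at day 8, and 48.2, 44.3 and 51.4 CPM at day 23. Day 2 stood clear of every other group, and every infected library exceeded those of hour 0. At hour 3 the gene rose 1.76-fold (log2 fold change 0.81 ± 0.226 SE, adjusted p = 0.00416), but its direction turned with library totals (-0.36, adjusted p = 0.168), and against hour 3 it was at -0.02 at day 8 (95% interval -0.48 to 0.43) and -0.06 at day 23 (-0.52 to 0.40).

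Nr4a1 (ENSMUSG00000023034, chromosome 15, 101254269 to 101274795), a nuclear receptor gene induced by many stimuli, was already abundant. It had 350, 482 and 371 CPM at hour 0, 483, 560 and 343 CPM at hour 3, 371, 304 and 347 CPM at day 1, 907, 707 and 488 CPM at day 2, 725, 593 and 508 CPM at day 8, and 480, 368 and 405 CPM at day 23. Hour 3 and hour 0 overlapped, while day 2 and day 8 lay above hour 0. The hour 3 difference was 0.20 (95% interval -0.22 to 0.63, adjusted p = 0.395), and with library totals it turned to -0.98 (adjusted p = 6.27e-04).

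Egr1 (ENSMUSG00000038418, chromosome 18, 34859823 to 34864984), the most abundant of the 10 genes in CPM at every time, did not share the rise of its relatives. It had 2140, 1740 and 2040 CPM at hour 0, 1820, 1080 and 1200 CPM at hour 3, 1550, 1600 and 1430 CPM at day 1, 1670, 1320 and 846 CPM at day 2, 1780, 1640 and 1600 CPM at day 8, and 2300, 1670 and 1710 CPM at day 23. Hour 3 overlapped hour 0 through its highest library. Egr1 was lower at hour 3, with a mean of 1370 ± 398 CPM against 1970 ± 207 CPM at hour 0 (log2 fold change -0.53 ± 0.212 SE, adjusted p = 0.0342), a call lost without replicate 5, 6, 10 or 12 (adjusted p = 0.137, 0.108, 0.0967 and 0.0726) and with no filter (0.0511). Klf4 (ENSMUSG00000003032, chromosome 4, 55527143 to 55532466) had 416, 294 and 471 CPM at hour 0, 343, 206 and 197 CPM at hour 3, 383, 477 and 340 CPM at day 1, 413, 415 and 294 CPM at day 2, 451, 330 and 358 CPM at day 8, and 419, 380 and 395 CPM at day 23. Hour 3 was its lowest group, though replicate 4 reached into the range of hour 0. Klf4 was lower at hour 3 than at hour 0 (-0.66, adjusted p = 0.00992), a call lost without replicate 5, 6 or 12 (0.0524, 0.0608 and 0.0587). It was higher at day 8 than at hour 3 (0.61, adjusted p = 0.0248), which was lost without replicate 1, 5 or 6 (0.146, 0.137 and 0.164) and in a fit of the set of 9 libraries (0.057). It was also higher at day 23 than at hour 3 (0.68, adjusted p = 0.013), which was lost without replicate 5 or 6 (0.0818 and 0.0982).

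Ier2 (ENSMUSG00000053560, chromosome 8, 84661331 to 84662852) had 396, 334 and 363 CPM at hour 0, 343, 273 and 324 CPM at hour 3, 428, 356 and 336 CPM at day 1, 359, 270 and 190 CPM at day 2, 502, 505 and 455 CPM at day 8, and 342, 396 and 333 CPM at day 23. Only day 8 stood apart from the rest of these values, above them. Ier2 passed no test against hour 0 at any of the 5 later times, with changes of -0.42 to 0.42 on the log2 scale, and with library totals it was lower at hour 3 (-1.40, adjusted p = 3.85e-07). Day 8 was above hour 3 (0.64, adjusted p = 0.00717), a call lost without replicate 2 (0.0538) and without replicate 5 (0.0501).

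**Figure D2:**
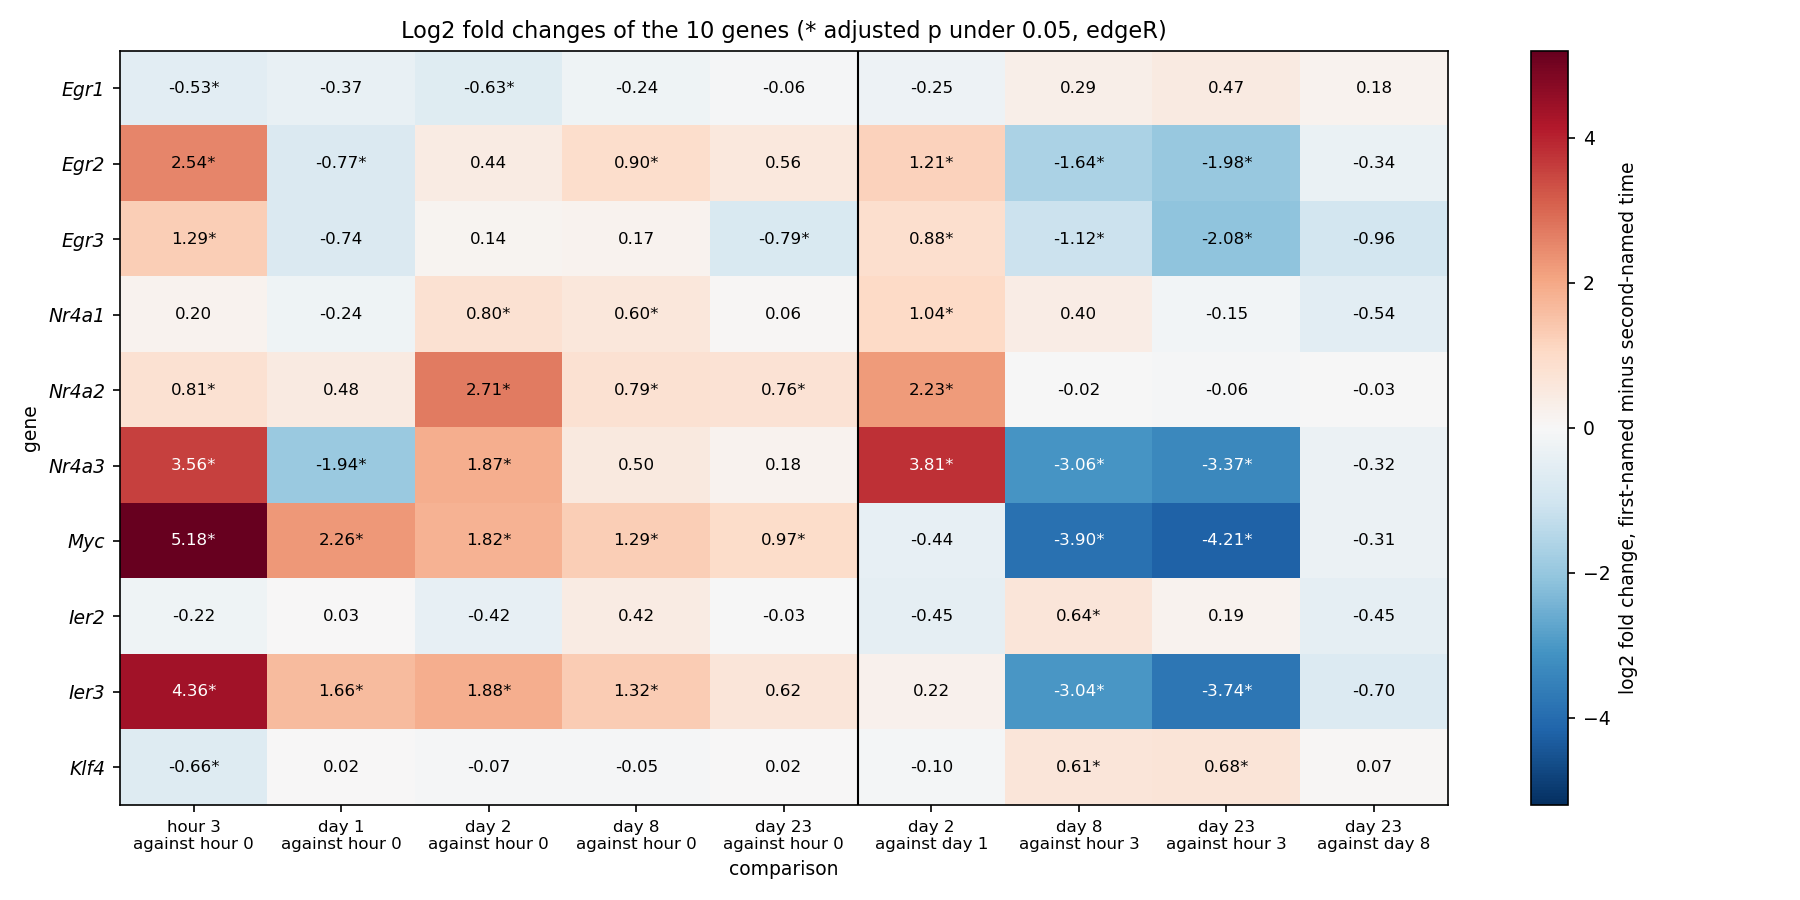
Log2 fold changes of the 10 genes (rows) in 9 comparisons (columns), first-named minus second-named time, with an asterisk for an adjusted p under 0.05 and a line between comparisons with hour 0 and comparisons of 2 later times. Comparisons of 2 later times lie inside a library set, as do those of day 1 and day 2 with hour 0. The hour 3 column ranges from 5.18 (Myc) to -0.66 (Klf4), Nr4a3 reads 3.56, -1.94 and 1.87 at hour 3, day 1 and day 2 against hour 0, and no gene passed between day 23 and day 8.

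Scaling bears on the hour 3 result, since TMM factors were 0.516 to 0.547 there and 1.142 to 1.24 at hour 0. With library totals alone the median log2 fold change of all genes moved by -1.15. Under that scaling Myc (4.01), Ier3 (3.18), Nr4a3 (2.36) and Egr2 (1.37) still rose, Egr3 and Nr4a2 had no call, and Egr1 (-1.71), Klf4 (-1.84), Ier2 and Nr4a1 fell. Neutrophil markers were also higher at hour 3, all 4 of them (35.7 to 45.6 CPM summed, against 2.03 to 5.32 CPM at hour 0), as were 4 of 6 epithelial markers (810 to 1130 CPM, against 341 to 545 CPM), with the other 2 lower. Fibroblast markers were higher in 8 of 10 (43600 to 44700 CPM, against 24600 to 29200 CPM), and mural markers summed to 1720 to 2010 CPM, against 727 to 1150 CPM, with 1 of 4 higher and 1 lower. The T and NK markers summed to 0.13 to 0.791 CPM at hour 3 with 2 of 5 at 0 in all 3 libraries, and the B and plasma markers to at most 0.395 CPM with 2 of 4 at 0. The part of these signals in the changes of the 10 genes was not tested.

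**Figure D3:**
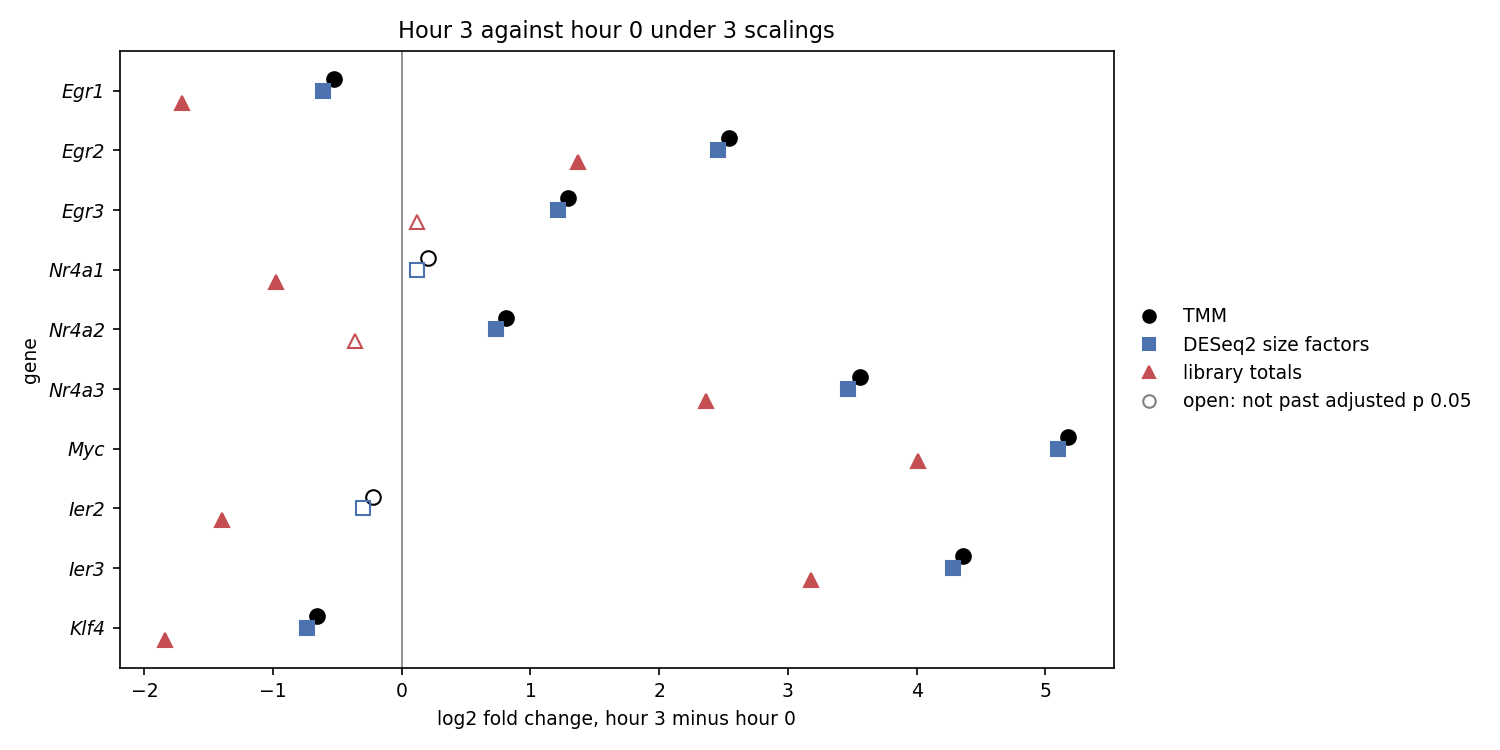
Log2 fold change at hour 3 against hour 0 (horizontal axis) of each of the 10 genes under TMM, DESeq2 size factors and library totals, with open symbols for values not past an adjusted p of 0.05. Myc, Ier3, Nr4a3 and Egr2 stayed to the right of 0 with filled symbols under all 3 scalings, while Nr4a1 and Nr4a2 crossed 0 with library totals.

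By day 1 the genes had parted. Myc and Ier3 were higher than at hour 0, Nr4a3 and Egr2 were lower, and the other 6 passed no test. Of all genes tested 22.5% passed, 9.67% as higher and 12.8% as lower, and the median was -0.11 for the 10 genes and -0.41 for all. This comparison lies inside a library set. Myc was 4.78-fold up at a mean of 100 ± 34.6 CPM, against 21 ± 5.64 CPM at hour 0 (log2 fold change 2.26 ± 0.231 SE, adjusted p = 7.06e-09), and Ier3 was 3.16-fold up (1.66 ± 0.243 SE, adjusted p = 3.82e-06). Nr4a3 fell 3.84-fold, to 24.7 ± 6.26 CPM against 94.7 ± 26.6 CPM at hour 0 (-1.94 ± 0.282 SE, adjusted p = 3.43e-06), with all 3 day 1 libraries below all 3 of hour 0. Egr2 fell 1.71-fold (-0.77, adjusted p = 0.0172), a call lost without replicate 12 or 14 (adjusted p = 0.0845 and 0.0855), with library totals (0.0554) and in a fit of the set of 9 libraries (0.0599). Secretory markers were lower at day 1 than at hour 0 in 5 of 5 (2230 to 3040 CPM, against 29800 to 67800 CPM). Mural markers were lower in 3 of 4 and higher in 1 (75.4 to 94.7 CPM summed, against 727 to 1150 CPM). Epithelial and blood endothelial markers were each lower in 3 of 6, with 0 higher. Glial markers were lower too, all 4 of them (8.82 to 11.9 CPM, against 70.9 to 79.6 CPM), as were 8 of 10 fibroblast markers (11100 to 15100 CPM, against 24600 to 29200 CPM). Their part in these values was not tested.

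At day 2 all 3 NR4A genes were above hour 0. Against hour 0, 5 of the 10 genes were higher (Nr4a2, Ier3, Nr4a3, Myc and Nr4a1) and 1 was lower (Egr1), beside 14.8% of all genes, 5.12% as higher and 9.63% as lower. The medians were 0.62 for the 10 genes and 0.29 for all. Nr4a2 rose 6.56-fold, to 186 ± 59.7 CPM against 28.3 ± 2.49 CPM at hour 0 (log2 fold change 2.71 ± 0.235 SE, adjusted p = 6.51e-10), and was the only one of the 10 genes to reach its highest mean at day 2 with no library of another group in its range. Nr4a3 rose 3.66-fold (1.87 ± 0.276 SE, adjusted p = 7.28e-06) and Nr4a1 1.75-fold (0.80 ± 0.209 SE, adjusted p = 0.00677), a call of Nr4a1 that was lost without replicate 10 or 16 (adjusted p = 0.0522 and 0.104). Ier3 (1.88, adjusted p = 1.04e-06) and Myc (1.82, adjusted p = 5.79e-07) stayed above hour 0. Egr1 was at -0.63 (adjusted p = 0.044), a call that ended with DESeq2 size factors (0.249), library totals (0.495), the stricter filter (0.102), DESeq2 (0.173) and without replicate 10, 12, 17 or 18 (0.125, 0.102, 0.0822 and 0.273). Secretory markers were lower than at hour 0 in 5 of 5 (218 to 1050 CPM, against 29800 to 67800 CPM). Mural markers were lower in 2 of 4 (101 to 157 CPM, against 727 to 1150 CPM). Fibroblast markers were lower in 5 of 10 and higher in 1 (14900 to 22800 CPM, against 24600 to 29200 CPM). Neutrophil markers were higher in 2 of 4 (10.3 to 18.8 CPM, against 2.03 to 5.32 CPM). The part of these signals in the day 2 values was not tested.

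Between day 2 and day 1, also inside the set, 5 of the 10 genes were higher and 0 lower, beside 23.2% of all genes, 12% as higher and 11.2% as lower. Medians were 0.55 for the 10 genes and 0.78 for all. Nr4a3 had 460, 375 and 206 CPM at day 2, against 17.6, 29.3 and 27.1 CPM at day 1, a 14.1-fold difference (log2 fold change 3.81 ± 0.301 SE, adjusted p = 1.72e-09). Nr4a2 was 4.69-fold higher (2.23, adjusted p = 9.13e-08), Egr2 2.32-fold (1.21, adjusted p = 0.000572), Nr4a1 2.06-fold (1.04, adjusted p = 0.000755) and Egr3 1.84-fold (0.88, adjusted p = 0.0356). The Egr3 call was lost without replicate 13, 15, 16 or 17 (adjusted p = 0.0797 to 0.188), with only both groups fitted (0.136) and in a fit of the set of 9 libraries (0.106). Replicate 18 gave the lowest day 2 value of all 10 genes, and yet its Nr4a2 and Nr4a3 values stayed above every day 1 and hour 0 library. Day 2 had the highest background of all groups. Glial markers (108 to 142 CPM at day 2, against 8.82 to 11.9 CPM at day 1) and mural markers (101 to 157 CPM, against 75.4 to 94.7 CPM) moved with these rises. So did neutrophil markers in 2 of 4 (10.3 to 18.8 CPM, against 2.39 to 5.66 CPM). Macrophage, monocyte and dendritic markers were higher in 2 of 6 (26.3 to 30.4 CPM, against 9.92 to 14.5 CPM). B and plasma markers were higher in 2 of 4 (6.01 to 11.5 CPM, against 1.39 to 1.94 CPM). Fibroblast markers were higher in 4 of 10 and lower in 2, while epithelial markers were lower in 3 of 6 and secretory markers in 2 of 5. Their part was not tested.

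At day 8, 5 of the 10 genes were higher than at hour 0 and 0 lower, beside 43.9% of all genes, 11.2% as higher and 32.7% as lower, with medians of 0.55 and -0.68. Ier3 was 2.5-fold up at 40.5 ± 4.75 CPM, against 16.2 ± 2.74 CPM at hour 0 (log2 fold change 1.32 ± 0.242 SE, adjusted p = 0.000199), and Myc 2.44-fold at 51.3 ± 9.44 CPM, against 21 ± 5.64 CPM (1.29 ± 0.226 SE, adjusted p = 0.000128). Both kept their calls with library totals (0.93 and 0.91). Egr2 (0.90, adjusted p = 0.00437), Nr4a2 (0.79, adjusted p = 0.00783) and Nr4a1 (0.60, adjusted p = 0.0229) rose under TMM, but not with library totals (adjusted p = 0.0845, 0.157 and 0.461). The Nr4a1 call was lost under 5 of 8 other settings and without replicate 1, 2, 10 or 12, and that of Nr4a2 without replicate 1 (adjusted p = 0.0562). Epithelial markers were higher at day 8 in 4 of 6 (2410 to 2900 CPM summed, against 341 to 545 CPM at hour 0), macrophage, monocyte and dendritic markers in 4 of 6 (90.4 to 103 CPM, against 13.8 to 21.1 CPM) and blood endothelial markers in 3 of 6 (113 to 142 CPM, against 56.8 to 63.5 CPM). Secretory markers were higher in 3 of 5 (43000 to 135000 CPM, against 29800 to 67800 CPM) and T and NK markers in 2 of 5 (10.9 to 16.9 CPM, against 1.26 to 6 CPM). Their part in the rises was not tested.

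At day 23, Myc (41.3 ± 5.23 CPM, against 21 ± 5.64 CPM at hour 0) and Nr4a2 (48 ± 3.53 CPM, against 28.3 ± 2.49 CPM) were higher and Egr3 (24 ± 8.32 CPM, against 41.4 ± 13 CPM) was lower, beside 34% of all genes, 8.51% as higher and 25.4% as lower. Thus 3 of 10 is a share near the background. The medians were 0.12 for the 10 genes and -0.53 for all. Myc rose 1.96-fold (log2 fold change 0.97 ± 0.229 SE, adjusted p = 0.00357), but with library totals it was at 0.54 (adjusted p = 0.064). Nr4a2 rose 1.69-fold (0.76, adjusted p = 0.0155), a call lost under 4 other settings, and Egr3 was at -0.79 (adjusted p = 0.0478), lost under 3 other settings and without replicate 8, 9, 11 or 12. Ier3 was at 0.62 (adjusted p = 0.0532). Epithelial markers were higher at day 23 than at hour 0 in 4 of 6 (681 to 1280 CPM, against 341 to 545 CPM). Secretory markers were higher in 3 of 5 (69500 to 221000 CPM, against 29800 to 67800 CPM). Lymphatic endothelial markers were lower in 2 of 4, and glial markers lower in 2 of 4 and higher in 1. Of 10 fibroblast markers 0 passed. The part of these signals in the day 23 values was not tested. None of the 10 genes passed between day 23 and day 8, where 5.32% of all genes did (2.25% as higher and 3.08% as lower). Egr3, Ier3, Nr4a1 and Ier2, 4 of the 10, had an unadjusted p under 0.05 there in the edgeR fit. DESeq2 and limma-voom also called 0 of the 10, the fit with no filter called 4 and the fit of the set of 9 libraries 1. The 5.32% holds for adjusted p in the main fit. Shares of all genes at the unadjusted threshold or in the other fits are not given here.

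The fall after hour 3 was read inside the library set. Against hour 3, day 8 had 5 of the 10 genes lower (Myc, Nr4a3, Ier3, Egr2 and Egr3) and 2 higher (Ier2 and Klf4), beside 30.7% of all genes, 14.1% as lower and 16.5% as higher, with medians of -0.57 and 0. Day 23 had the same 5 genes lower than at hour 3 and Klf4 higher, beside 30% of all genes, 14.3% as lower and 15.7% as higher, with medians of -1.06 and 0. These comparisons share the hour 3 libraries. Over the 6 groups all 10 genes passed the test for any change, as did 83.9% of all genes.

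The order of the group means sets the genes apart. Myc, Ier3, Nr4a3, Egr2 and Egr3 were highest at hour 3, with no library of the next group in the range of hour 3. Nr4a2 was highest at day 2 and likewise clear of hour 3, the next in order. For Myc, day 1, day 2, day 8 and day 23 followed in that order, each overlapping the next, and only hour 0 was clear below. For Ier3, day 2, day 1 and day 8 overlapped in turn, day 23 was clear of day 8 but reached into day 1, and hour 0 lay clear below all. Nr4a3 was clear between hour 3 and day 2, between day 2 and day 8, and between hour 0 and day 1, while day 8, day 23 and hour 0 overlapped. In Egr1, Nr4a1 and Klf4 each group overlapped its neighbour in the order. The ratio of the highest to the lowest group mean was 45.1 for Nr4a3, 36.4 for Myc, 20.5 for Ier3, 9.96 for Egr2, 6.57 for Nr4a2 and 4.23 for Egr3, and 1.54 to 2.06 for Nr4a1, Ier2, Klf4 and Egr1.

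Levels per kb of exon show which family member prevailed. From hour 0 through hour 3, day 1, day 2 and day 8 to day 23, Nr4a1 made up 83.4% ± 1.71, 39.9% ± 6.18, 87.4% ± 2.18, 66.1% ± 2.15, 83.6% ± 1.73 and 80% ± 1.67 of the NR4A level (SD, n = 3). Nr4a3 took 11.5% ± 2.11, 56.5% ± 6.59, 3.77% ± 1.2, 18.8% ± 1.66, 10.6% ± 1.68 and 12% ± 1.72 at the same times, so Nr4a3 exceeded Nr4a1 at hour 3 alone. In the 3 hour 3 libraries the Nr4a3 share was 48.8% to 60.5%, against 9.09% to 13.1% at hour 0. Nr4a2 had its largest share at day 2, with 14.6% to 15.8%, against 4.53% to 5.75% at hour 0. These shares come from within each library and do not depend on its scaling.

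The EGR level was carried by Egr1 throughout, with 94.5% ± 0.981, 71.2% ± 5.75, 95.7% ± 0.594, 89.7% ± 1.01, 90.1% ± 0.997 and 93.5% ± 1.02 at these times in turn. Egr2 came to 18.3% to 28.6% in the hour 3 libraries, against 3.16% to 3.96% at hour 0, and Egr3 to 4.72% to 6%, against 1.48% to 2.63%. The summed EGR level was 424 ± 89.8 CPM per kb at hour 3 and 466 ± 48.4 CPM per kb at hour 0, with overlapping libraries. The summed NR4A level was 330 ± 60.1 CPM per kb at hour 3 and 303 ± 95.8 CPM per kb at day 2, against 137 ± 24.2 CPM per kb at hour 0, and in both cases every library lay above those of hour 0. Unlike the shares, these sums depend on scaling, with TMM factors of 0.516 to 0.547 at hour 3 and 1.142 to 1.24 at hour 0. With library totals the hour 3 log2 fold changes were 2.36 for Nr4a3, -0.98 for Nr4a1 and -1.71 for Egr1. Sums under library totals are not given here, so both comparisons of sums between hour 3 and hour 0 are for TMM alone. Per kb, Egr1 (440 CPM per kb) was the highest of the 10 genes at hour 0, followed by Ier2 (240), Klf4 (129) and Nr4a1 (114), while at hour 3 Egr1 (305), Ier3 (294) and Myc (281) came close to each other.

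**Figure D4:**
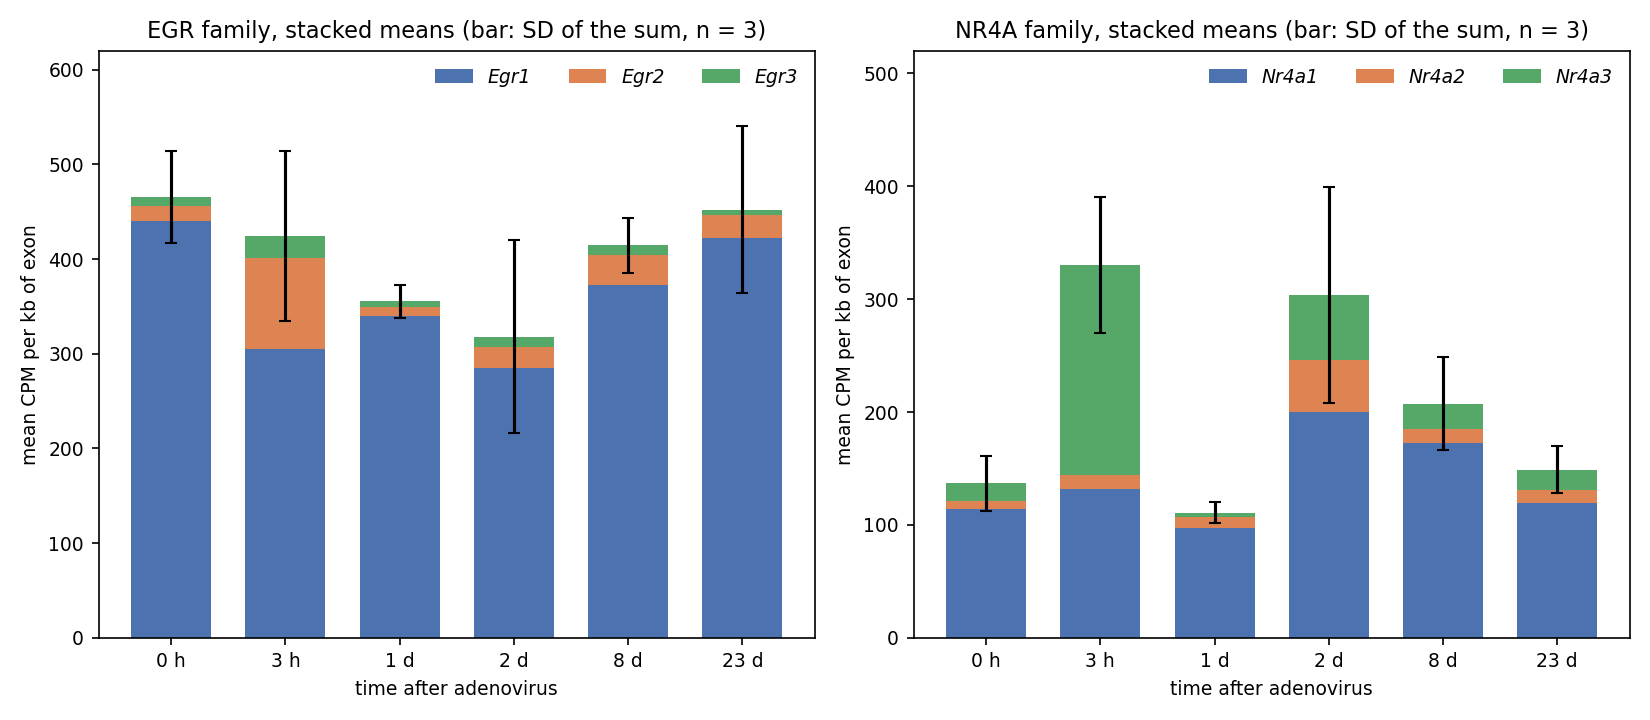
Stacked means of CPM per kb of exon of the EGR genes (left) and NR4A genes (right) by time after adenovirus, with bars for the SD of the summed level (n = 3). Nr4a3 fills 56.5% of the NR4A column at hour 3 and Nr4a2 15.1% at day 2, while Egr1 holds at least 71.2% of every EGR column.

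The partners and targets of MYC were read from lists. Of 20 known MYC target genes of ribosome assembly, polyamine and nucleotide synthesis and growth, 18 were higher at hour 3 than at hour 0 and 0 lower, with a median of 2.89 against -1.41 for all genes. Odc1, which encodes the first enzyme of polyamine synthesis, had 1070 to 1370 CPM at hour 3, against 49.3 to 87.3 CPM at hour 0 (log2 fold change 4.11, adjusted p = 7.51e-14). Rrp12, a ribosome assembly gene, had 115 to 148 CPM, against 8.61 to 11.6 CPM (3.72, adjusted p = 9.34e-14). The exceptions were Cad (-0.25) and Cdk4 (0.05), which passed no test. With library totals 17 of the 20 were higher and 2 lower, with a median of 1.71.

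At day 1, 19 of the 20 targets were higher than at hour 0 and 0 lower (median 1.39, against -0.41 for all genes), led by Rrp12 (2.30, adjusted p = 1.41e-09) and Fbl, the methyltransferase of nucleolar RNA particles (1.92, adjusted p = 5.18e-07). Fbl had 35.9 to 69.1 CPM at day 1, against 11.3 to 20.1 CPM at hour 0. At day 2 5 of the 20 were higher than at hour 0 (median 0.39), at day 8 8 (0.51) and at day 23 5 (0.25), with 0 lower each time. With library totals these counts were 12 at day 2, 1 at day 8 with 1 lower, and 2 at day 23 with 4 lower. Inside the sets, 18 of the 20 were lower at day 2 than at day 1 (median -0.98, against 0.78 for all genes), 18 were lower at day 8 than at hour 3 (-2.26, against 0) and 18 at day 23 than at hour 3 (-2.56, against 0). Myc itself was at -0.44 between day 2 and day 1 (95% interval -0.88 to 0.01, adjusted p = 0.136). With library totals 12 of the 20 were lower at day 2 than at day 1, and 17 lower and 2 higher at day 8 than at hour 3.

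**Figure D5:**
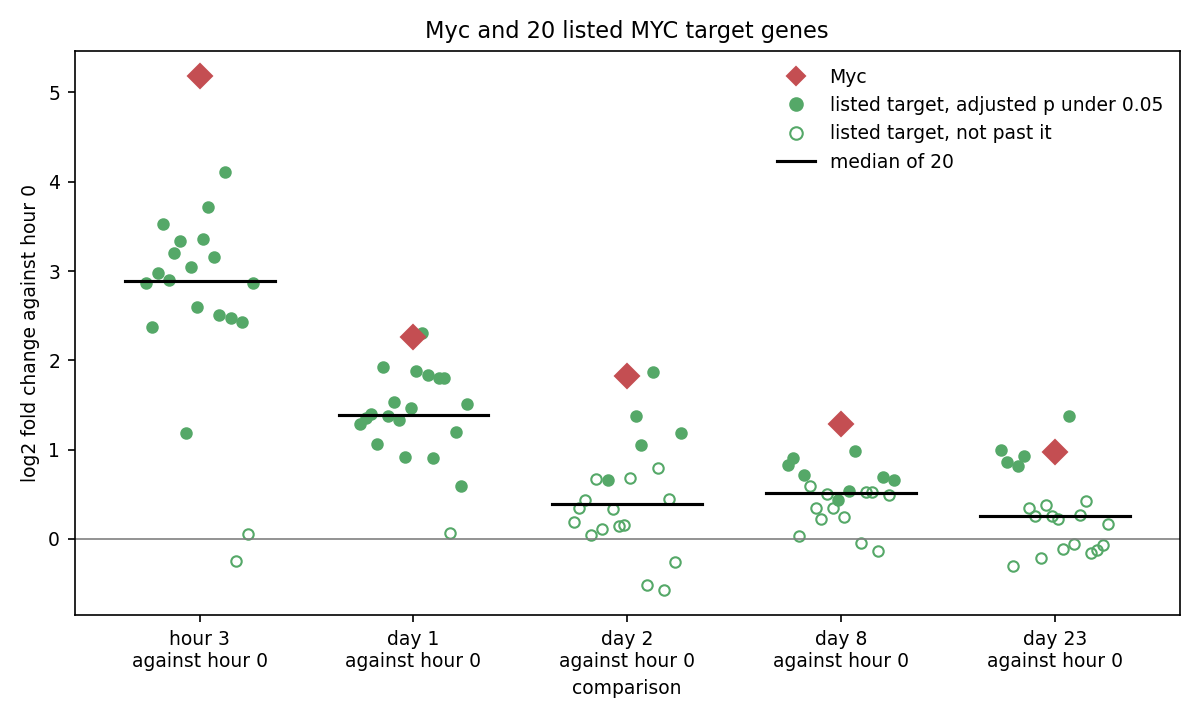
Log2 fold changes against hour 0 (vertical axis) of Myc (diamond) and of 20 listed MYC target genes (circles, filled where the adjusted p is under 0.05) at 5 times, with lines at the medians of the 20. From hour 3 onward the medians were 2.89, 1.39, 0.39, 0.51 and 0.25 in time order, and Myc lay above the median each time.

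Of 11 genes of the wider MYC and MAX network, 4 were higher and 4 lower at hour 3 (median -0.10), and 5 higher and 2 lower at day 1 (0.60). Max, the shared partner, rose at both times (0.95 and 0.60, adjusted p = 0.000172 and 0.0215), as did Mxd1, an antagonist of MYC at E-boxes (1.22 and 1.01), and the glucose-responsive factor gene Mlxip (1.78 and 0.92). Mlx rose at day 1 (0.97). The antagonist genes Mxi1 (-0.81 and -0.88) and Mxd4 (-1.56 and -1.29) fell at both times. With library totals the hour 3 counts were 2 higher and 6 lower (median -1.29), Max was at -0.22 (adjusted p = 0.29) and Mxd1 at 0.05 (0.855), while the day 1 counts were the same.

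Other regulators of the class also divided at hour 3. Of 6 genes of serum response factor and its partners 4 were higher and 1 lower (median 0.92), among them Srf (0.87), Elk3 (1.30) and Elk4 (1.80) up and Mrtfb (-0.96) down. With library totals 1 was higher (Elk4) and 2 lower, Srf was at -0.31 (adjusted p = 0.119) and Elk3 at 0.14 (0.564). Nab1, a co-repressor of EGR proteins, rose under TMM (0.93, adjusted p = 2.46e-05) but was at -0.24 with library totals (0.183), while its relative Nab2, which EGR proteins are known to induce, fell to 6.91 to 9.65 CPM at hour 3, against 37 to 62.3 CPM at hour 0 (-2.60, adjusted p = 1.39e-10). Egr4, the remaining EGR gene, was near its detection limit, at 0 to 0.13 CPM at hour 3, against 1.35 to 3.81 CPM at hour 0. Of 10 other KLF genes 5 were higher and 3 lower at hour 3 (median 0.54). Klf5 (2.62), Klf10 (1.45) and Klf6 (0.94) rose, and Klf15 (-1.74) and Klf2 (-1.24), a flow-responsive relative of Klf4, fell. At day 1 Klf2 rose (0.78) and Klf3 fell (-0.56), and at day 8 4 were higher and 0 lower, with Klf6 at 1.36. With library totals the hour 3 counts were 1 higher and 5 lower (median -0.63), with Klf10 at 0.29 (adjusted p = 0.249) and Klf6 at -0.24 (0.275). Klf3 then had no call at day 1 (-0.45), and 2 were higher and 2 lower at day 8.

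The AP-1 genes and heat-shock genes were read beside the 10 genes, since both respond to handling of tissue as well as to stimuli. Fos had 1230 to 3610 CPM over all groups but hour 3, where it had 960 to 1660 CPM, and Jun had at least 1500 CPM in every library, so that, like Egr1, both were abundant at hour 0. Of 11 AP-1 and other immediate-early genes, 4 were higher and 5 lower at hour 3 (median 0.25), beside 16.9% and 43.1% of all genes, with Fosl1 (5.95), Fosl2 (2.67) and Junb (1.36) up and Fosb (-1.75), Jund (-0.98) and Fos (-0.76) down. At day 1 2 were higher, Fosl1 (4.22) and Dusp1 (0.77), and 3 lower, among them Jun (-0.94), Atf3 (-0.91) and Fos (-0.62). With library totals the hour 3 counts were 2 higher and 7 lower, Junb was at 0.18 (adjusted p = 0.424), and Fos had no call at day 1 (0.103). Of 8 heat-shock genes 4 were higher at hour 3, Hspb1 (2.60) and Hsp90aa1 (2.47) foremost, and 2 lower, Hspa1a (-2.64) and Hspa1b (-2.30), with a median of 0.35. With library totals 3 were higher and 4 lower (median -0.81). At day 1 7 were higher and 0 lower, led by Hspb1 (2.87) and Hspe1 (2.22), with Hspa1a at 1.77. At day 2 1 was higher, at day 8 3, and at day 23 8 of 8. With library totals 3 were higher at day 2 and 1 at day 8, where 1 was lower. Hspa1a had 11.5 to 18.4 CPM at hour 3, against 66.4 to 133 CPM at hour 0. The part of cell release in the levels of the 10 genes was not tested.

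Profiles over the 6 group means were compared by the root mean square difference of centred log2 CPM, over 10450 protein-coding genes with at least 10 CPM in their highest group. Myc and Ier3 were each other's nearest among the 10 genes (0.35), with 8 genes nearer to Myc and 13 nearer to Ier3. Egr2 and Egr3 were also each other's nearest (0.53), but 205 genes were nearer to Egr2 and 593 nearer to Egr3. Nr4a3 was nearest to Egr2 (0.88, with 32 genes nearer) and Nr4a2 to Nr4a1 (0.60, with 35 nearer). Nr4a1 was nearest to Klf4 (0.45, with 727 nearer) and Egr1 to Ier2 (0.22, with 453 nearer). Outside the 10 genes Myc was closest to Chac1 (0.21) and Chst11 (0.29), Ier3 to Prag1 (0.21) and Rnf125 (0.23), Egr2 to Itpkb (0.17) and Fli1 (0.20), and Egr3 to Ythdc2 (0.14) and St7 (0.20). The nearest genes to Nr4a3 were Adamts4 (0.65) and Comp (0.67), and those to Nr4a2 were Cacna1c and Spata13 (0.40 each), so both had no gene as near as those of Myc or Egr2. The profiles with the smallest range, those of Egr1 (Ppp6r2 and Fam168a), Nr4a1 (Dhrs1 and Dgat1), Ier2 (Klhl5 and Chchd1) and Klf4 (Wipf2 and Ssbp4), had nearest genes at 0.02 to 0.16. These values describe likeness over 6 points that share libraries.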

How the data were processed

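RNA sequencing libraries of gp38+ stromal cells from mouse salivary glands (3 per group, 6 groups) were analysed from the raw counts per Ensembl gene that the authors deposited. The submitters' processing notes name FastQC, STAR, Subread and DESeq2 as tools and mm10 as the genome build. Versions, annotation, strand and the handling of multi-mapping reads are not given in the sources used here, so reads of antisense transcripts cannot be told apart from those of a gene. No other counted gene of the annotation below overlaps any of the 10 genes. Of 55401 identifiers 55141 matched GENCODE M21 (GRCm38), and the other 260 held 0.0241% of counts.

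A single quasi-likelihood model in edgeR 4.0.16 (R 4.3.3) took all 18 libraries, with TMM scaling and filterByExpr at 10 counts (15 in total), and p-values were Benjamini-Hochberg adjusted over 27525 genes in each comparison. A gene has risen or fallen at an adjusted p under 0.05. CPM values are TMM-scaled, and profile likeness used log2 CPM with a prior count of 2. Intervals for counts cover counting error only. Per the labels, each library has a mouse number of its own.

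The 10 genes, the related lists and the comparisons were chosen with earlier results of these data known. Named genes of the lists are a fixed few plus the 2 largest rises and falls at hour 3 and day 1 with at least 10 CPM in the higher group. Cad and Cdk4 were named after their values had been seen. The fit was run on simulated data in which few genes changed, as many up as down. That run therefore does not bear on the choice of scaling at hour 3. Other settings were DESeq2 size factors, library totals, limma-voom (limma 3.58.1), DESeq2 1.42.0, no filter, at least 5 CPM in 3 libraries, only the 2 groups compared, only the set of 9 libraries, no day 2 libraries, and leaving out each replicate.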

Additional observations from a re-analysis of the deposited data

How the results depend on the processing

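Of 44 calls of the 10 genes in 9 comparisons (90 values), 26 held under every other setting and without each replicate, and 18 were lost under at least 1. Those that held include the hour 3 rises of Myc, Ier3, Nr4a3 and Egr2, the day 1 fall and day 2 rise of Nr4a3, the day 2 rise of Nr4a2, and the rises of Myc and Ier3 through day 8. Among values called in either fit, directions turned only with library totals (values called in neither also crossed 0, under this and other settings): at hour 3 against hour 0 Nr4a1 became -0.98 and Nr4a2 -0.36, at day 8 against hour 3 Nr4a2 became 0.77, and at day 23 against hour 3 Nr4a1 became 0.59 and Nr4a2 0.68. The cause was not tested. Library totals also gave 3 called genes at day 8 against hour 0 (5 with TMM) and 10 at day 23 against hour 3 (6 with TMM). Under that scaling the median log2 fold change of all genes moved by -0.39 and by 0.7 in these comparisons. No filter gave 5 at day 23 against hour 0 (3), 8 at day 2 against day 1 (5) and 4 at day 23 against day 8 (0). At day 23 against hour 0 the stricter filter, limma-voom and a fit of only both groups each gave 1. A fit of the set of 9 libraries gave 1 at day 23 against day 8. The share of all genes called in each of these other fits is not given here, so these counts cannot be set against a background.

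Leaving out each replicate gave 6 to 8 called genes at hour 3 against hour 0, 3 to 4 at day 1, 4 to 6 at day 2, 3 to 5 at day 8 and 2 to 4 at day 23. It gave 4 to 6 at day 2 against day 1, 5 to 7 at day 8 and 5 to 7 at day 23 against hour 3, 0 to 2 at day 23 against day 8, and 8 to 10 over the 6 groups. These counts likewise stand without the share of all genes called in the same fits. The 3 calls at day 8 came without replicate 1, and the 2 at day 23 against day 8 without replicate 7. No paired analysis was possible because the replicate numbers run from 1 to 18 with none shared between groups. With 3 libraries per group and library set confounded with time, small changes against hour 0 at hour 3, day 8 and day 23 remain limited by the choice of scaling.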
